A study of Mus musculus with 15 samples.

Results

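Short CDR3 TCRs were the productive TCR β rearrangements whose CDR3 begins with cysteine (C) and is at most 12 amino acids long. They made up 2752 of the 18448 productive rearrangements beginning with C, or 14.9%, in a set of 29992 listed rearrangements. Of the short rearrangements, the TdLN samples held 2384, tumor 1 held 180 and tumor 2 held 188. Counted once across samples they were 2620 distinct nucleotide rearrangements that encoded 2084 distinct CDR3s, and all 2752 ended with phenylalanine (F). CD8+ PD-1+ CD44+ T cells, the antigen-experienced fraction of the CD8+ T cells, had been flow sorted from 5 untreated wild-type C57BL/6 mice, female and 6 weeks old, that carried B16F10GP on both flanks. B16F10GP is a mouse melanoma line with a viral glycoprotein as a model antigen, and the labels enter it as the cell type although the cells sequenced were T cells. In this model cells were injected into the right flank on day 0 (tumor 1) and into the left flank on day 3 (tumor 2), with harvest of all tissues on day 19. Each mouse gave its TdLN (the lymph node draining tumor 1), tumor 1 and tumor 2, which makes 15 samples, 5 per tissue, all from the control arm. The assay read genomic DNA, so expression markers of the sorted cells could not be checked.

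The CDR3 is the loop of the TCR β chain that lies over the peptide when a T cell recognises its target. It is assembled in the thymus by joining a V, a D and a J gene segment. Enzymes trim the ends of the segments before joining, and the enzyme TdT adds bases that no segment encodes, called N bases. A CDR3 is therefore short when its V and J genes bring few bases, when much is trimmed, when little D is kept and when few N bases are added. Rearrangements with few or no N bases can be made again independently in other cells and in other animals, and CDR3s found in several individuals are called public.

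Templates, the assay's estimate of genomes carrying a rearrangement, totalled 4909 to 13848 in a TdLN, 5382 to 7946 in a tumor 1 sample and 338 to 5401 in a tumor 2 sample. Of the productive rearrangements beginning with C, tumor 2 of mouse 4 held only 47 with 234 templates, and its 9 short rearrangements had 48 templates. Values are also shown within the set of mice 1 to 3 and within that of mice 4 and 5. The sample titles are alike in all mice and name no batch. Depth of the TdLN separates the sets, with 1333, 1622 and 1283 unique productive TCRs beginning with C in mice 1 to 3. Mice 4 and 5 had 5709 and 5699. In the TdLN, a difference between the sets cannot be told apart from this difference in depth. Some rearrangements were listed in more than 1 mouse. Among the short ones these were 54 of 2620, of which 26 had no N bases and 28 had N bases. Shared only within mice 1 to 3 or only within mice 4 and 5 were 25 of the 28 with N bases and 19 of the 26 without. Rearrangements shared between mice held a mean of 43.6% ± 36.04 of the short templates of tumor 1 and 61.3% ± 29.0 of those of tumor 2 (SD, n = 5), against 7.67% ± 7.17 in the TdLN. Among longer TCRs the same means were 65.6% ± 34.1, 72.4% ± 34.7 and 12.2% ± 13.2. The source of this sharing was not tested. Comparisons of the tumors with the TdLN by template share and by clone size are given with and without these rearrangements.

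The largest short TCR of each tumor 1 sample and the largest over the TdLN and over tumor 2 show how these receptors are built. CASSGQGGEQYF was the largest in tumor 1 of mouse 3 and also over all TdLN samples, so 6 rearrangements stand for the 7 places. Each is shown as the 87 bases that the assay read, 5′ to 3′ on the coding strand. Capitals mark the bases between the V part and the J part, which are D and N bases. The last codon of the CDR3, which encodes F, lies just past the end of the read.
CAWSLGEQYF (Trbv31, Trbj2-7): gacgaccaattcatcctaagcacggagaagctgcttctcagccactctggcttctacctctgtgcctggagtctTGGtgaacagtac
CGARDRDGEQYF (Trbv20, Trbj2-7): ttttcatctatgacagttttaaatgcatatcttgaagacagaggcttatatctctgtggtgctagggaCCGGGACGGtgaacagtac
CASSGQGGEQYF (Trbv5, Trbj2-7): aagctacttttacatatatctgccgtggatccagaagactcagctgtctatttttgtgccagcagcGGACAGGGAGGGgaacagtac
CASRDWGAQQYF (Trbv16, Trbj2-7): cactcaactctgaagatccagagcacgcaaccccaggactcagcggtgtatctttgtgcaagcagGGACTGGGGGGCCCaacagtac
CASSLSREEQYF (Trbv29, Trbj2-7): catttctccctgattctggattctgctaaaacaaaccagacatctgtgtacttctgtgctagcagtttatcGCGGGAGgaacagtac
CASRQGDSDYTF (Trbv13-1, Trbj1-2): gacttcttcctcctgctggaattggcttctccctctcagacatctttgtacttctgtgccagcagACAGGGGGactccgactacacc

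Between the V and J parts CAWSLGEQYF has only 3 bases, all from the D segment, whereas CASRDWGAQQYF has 14. The J part was Trbj2-7 in the largest short TCR of all 5 tumor 1 samples. Among all short TCRs of a tumor 1 sample, a mean of 45.3% used Trbj2-7 (28.6% to 57.9%). The V and J parts matched the TCR β locus of GRCm38 exactly. The V part of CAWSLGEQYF matched exon 2 of Trbv31 on the minus strand at chr6:41557693-41557766, and that of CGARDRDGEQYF matched exon 2 of Trbv20 at chr6:41188910-41188977. The other V parts lay in exon 2 of Trbv5 at chr6:41062733-41062798, Trbv16 at chr6:41152160-41152224, Trbv29 at chr6:41271811-41271881 and Trbv13-1 at chr6:41116399-41116463. The 10-base J part of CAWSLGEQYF matched the exon of Trbj2-7 at chr6:41543816-41543825.

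The largest short TCRs were also found in further samples. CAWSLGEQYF had 197 templates in tumor 1 of mouse 1, where it ranked 4 by size with 6.23% of the productive templates. Here and below, shares and ranks are among productive rearrangements beginning with C. It also had 92 templates in the TdLN and 96 in tumor 2 of the same mouse, and 23 in tumor 2 of mouse 2. In tumor 1 of mouse 1 a second form of this CDR3, with 4 D bases in place of 3, had another 44 templates.

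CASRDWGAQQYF was the short TCR with most templates of any sample, with 385 in tumor 1 of mouse 4, or 7.27% of its productive templates. It had 20 templates in tumor 2 of mouse 4 and 18 in tumor 1 of mouse 5, and was listed in no TdLN, where a count of 0 allows up to 3 templates per sample. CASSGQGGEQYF lay mainly in the node, with 191 templates in the TdLN of mouse 3 (4.86%) and 49 in its tumor 1 (1.24%). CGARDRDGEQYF was found in all 3 samples of mouse 2, where tumor 1 held 65 templates, tumor 2 held 24 and the TdLN held 22, and with 15 templates in tumor 2 of mouse 1. The remaining pair was each listed in 1 sample, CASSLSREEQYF with 70 templates in tumor 1 of mouse 5 and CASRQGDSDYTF with 127 in tumor 2 of mouse 5. Of the 6 rearrangements, 3 were thus listed in 2 mice, each time within mice 1 to 3 or within mice 4 and 5.

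Most short TCRs lay at the limit of the definition. CDR3s of 12 amino acids made up 1838 of the 2752 (66.8%), those of 11 made up 718 (26.1%) and those of 10 made up 168 (6.10%). Only 28 were of 9 amino acids or fewer. Just past the limit, 3489 productive rearrangements had 13 amino acids, and the most frequent length was 14, with 5698. The shortest member, CAQFF in the TdLN of mouse 4, joined Trbv31 to Trbj2-1 without a D or N base, after trimming of 8 bases from V and 13 from J. It rests on 1 template, and all 12 members of 8 amino acids or fewer had at most 3 templates each and were listed in the TdLN.

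**Figure D1:**
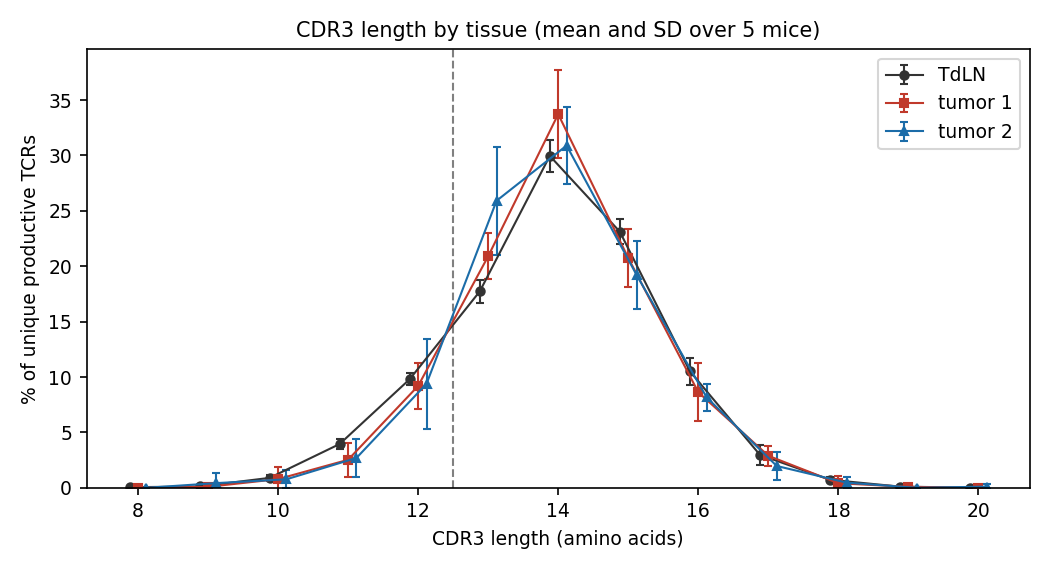
CDR3 length in amino acids against the percentage of unique productive TCRs of that length, as the mean over 5 mice with SD bars for the TdLN, tumor 1 and tumor 2. The dashed line separates short TCRs (12 or fewer) from the others; at 12 amino acids the means were 9.81%, 9.20% and 9.39%, and at 13 they were 17.7%, 20.9% and 25.9%.

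The parts of the CDR3 showed where the missing bases lay. In the TdLN a short CDR3 had a mean of 34.7 bases against 43.4 bases in the other TCRs, a difference of -8.66 bases, and the parts add up to this difference in every row. These values follow from the length rule and are given without a test. The kept D segment differed most, with 4.39 bases in short and 7.22 in other TCRs, a contribution of -2.83 ± 0.150 bases (SD, n = 5). Trimming of J contributed -2.09 ± 0.0745 bases, since 4.66 bases were trimmed from J in short TCRs and 2.57 in others. N bases between V and D contributed -0.97 ± 0.131 bases and those between D and J -0.94 ± 0.173. Trimming of V contributed -0.85 ± 0.329 bases and the shorter germline part of the J genes used -0.83 ± 0.0861, whereas the V genes used contributed only -0.14 ± 0.0576.

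N bases were correspondingly few. Short TCRs of the 5 TdLN samples had a mean of 2.07, 2.09, 2.02, 1.69 and 1.73 N bases in mice 1 to 5, against 4.16, 3.99, 3.96, 3.63 and 3.44 in the other TCRs. No N base at all was found in 26.6% ± 5.61 of the short and in 6.80% ± 2.75 of the other TCRs (SD, n = 5). No D segment was resolved in 9.91% ± 2.36 of the short and in 0.456% ± 0.170 of the others. In 76 of the 2384 short rearrangements of the TdLN there was neither a D nor an N base, so V was joined directly to J.

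Short TCRs of the TdLN used the J genes in other proportions than the remaining TCRs did. Of the 12 J genes tested, 10 had an adjusted p under 0.05, which is 83.3% of the J genes, with 2 used more and 8 used less by short TCRs. The test was edgeR's quasi-likelihood test on numbers of unique TCRs with the mouse as a block and Benjamini-Hochberg adjustment over all J genes. Germline J bases count towards the CDR3 length that defines short TCRs. J use is thus partly set by the rule, and its p-values are no independent evidence of a preference. J shares also add up to a whole, so higher shares of some J genes leave less for the others. Whether any of the 8 falls goes beyond this was not tested. Trbj2-7 made up 42.0%, 44.7%, 36.8%, 38.9% and 38.4% of the short TCRs of mice 1 to 5, and 18.9%, 17.9%, 18.02%, 19.4% and 19.2% of the other TCRs. The groups did not overlap, and the log2 fold change was 1.07 ± 0.08 (SE; edgeR adjusted p = 2.31e-17). Trbj1-1 made up 20.4%, 13.6%, 12.6%, 17.1% and 18.7% of the short TCRs against 9.81%, 7.95%, 8.87%, 8.62% and 8.62% of the others (log2 fold change 0.95 ± 0.13, SE; edgeR adjusted p = 7.24e-09). Among TCRs with at least 2 templates, Trbj1-1 was at 0.13 and not called (edgeR adjusted p = 0.830). Seen from the J gene, 27.1% ± 1.62 of all Trbj2-7 TCRs and 24.4% ± 3.32 of all Trbj1-1 TCRs of a TdLN were short (SD, n = 5).

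Trbj2-3 fell furthest, from 8.84% ± 0.655 of the other TCRs to 3.38% ± 1.35 of the short ones (SD, n = 5; log2 fold change -1.54 ± 0.21, SE; edgeR adjusted p = 7.24e-09). Trbj1-4 had a log2 fold change of -1.45, Trbj1-6 of -1.32 and Trbj2-2 of -1.18, and each of these 4 genes was lower among short TCRs in 5 of 5 mice. Trbj2-1, Trbj1-3, Trbj2-4 and Trbj2-5 were also called lower, with log2 fold changes between -1.02 and -0.38. Trbj1-2 and Trbj1-5 were not called. Germline length enters the rule: Trbj2-7 brings 19 bases to the CDR3 and Trbj1-1 brings 20, whereas Trbj1-6 brings 25. Over the 12 J genes, the log2 fold change and the germline bases had a Pearson r of -0.77 and a Spearman rho of -0.74, a description across genes that share the same libraries. Trbj1-2 brings 20 bases as Trbj1-1 does, but was near 0 at 0.10 ± 0.19 (SE), and Trbj2-3 brings 21.

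J genes of short TCRs give most of their ends. The 4 letters EQYF, encoded by Trbj2-7, ended 39.4% ± 2.86 of the short CDR3s of a TdLN and 18.6% ± 0.679 of the others. EVFF, which Trbj1-1 encodes, ended 15.5% ± 3.15 and 8.71% ± 0.745. At the other end, the V-encoded start CASS opened 59.9% ± 1.66 of the short CDR3s and 74.6% ± 0.546 of the others, and CASR opened 8.11% ± 1.86 and 2.88% ± 0.372 (SD, n = 5 each).

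V gene use differed as well. Of the 20 V genes tested, 9 were called by the same test, which is 45% of the V genes, with 5 used more and 4 used less by short TCRs. Germline V bases also count towards the CDR3 length, so the rule itself favours V genes that bring few. The V p-values are therefore not independent of the rule either, and V shares too add up to a whole. Trbv20 made up 4.42%, 5.04%, 6.32%, 5.64% and 4.18% of the short TCRs of mice 1 to 5 and 1.65%, 1.37%, 2.20%, 1.96% and 2.07% of the others. The groups did not overlap (log2 fold change 1.37 ± 0.16, SE; edgeR adjusted p = 6.12e-12). With Trbv30 and Trbv31, Trbv20 brings the fewest germline bases of the V genes read here, 14, and 32.7% ± 4.77 of its TCRs were short (SD, n = 5). Trbv31, with the same number of bases, was not called (log2 fold change 0.38 ± 0.17, SE; edgeR adjusted p = 0.0791).

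Trbv29 was the next highest, with 13.3%, 10.1%, 12.1%, 6.30% and 5.34% of the short TCRs in mice 1 to 5 and 4.86%, 5.21%, 5.31%, 4.52% and 4.04% of the others. It was higher among short TCRs in 5 of 5 mice, and more so in mice 1 to 3 (log2 fold change 0.71 ± 0.13, SE; edgeR adjusted p = 3.85e-06). In mice 1 to 3 alone the log2 fold change was 1.18 and in mice 4 and 5 alone 0.44, with an edgeR quasi-likelihood adjusted p of 5.45e-06 in the former set and 0.0775 in the latter. Trbv2 was the lowest, with 1.66%, 0.840%, 0.526%, 1.22% and 1.28% of the short TCRs against 4.43%, 3.69%, 4.67%, 4.21% and 4.06% of the others (log2 fold change -1.81 ± 0.22, SE; edgeR adjusted p = 4.72e-11). With a limit of 11 letters Trbv29 was at 0.42 and not called (edgeR adjusted p = 0.157). Trbv29 and Trbv2 both bring 17 germline bases to the CDR3. Over the 20 V genes, log2 fold change and germline bases had a Pearson r of -0.44 and a Spearman rho of -0.41, again a description across genes of the same libraries.

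Trbv5, Trbv3 and Trbv1 were lower among short TCRs, with log2 fold changes of -0.91, -0.89 and -0.60, and were lower in 4, 5 and 4 of 5 mice. The rises of the 3 Trbv13 genes were small and uneven. Trbv13-3 had a log2 fold change of 0.45 ± 0.13 (higher in 4 of 5 mice), Trbv13-1 of 0.31 ± 0.13 and Trbv13-2 of 0.29 ± 0.12 (SE, higher in 3 of 5 mice each), with edgeR adjusted p = 0.00363, 0.0462 and 0.0375. Trbv13-3 lost its call without mouse 4 or mouse 5, and Trbv13-1 without mouse 2, 4 or 5 (edgeR adjusted p up to 0.194 and 0.440). On log2 shares limma called neither, with Trbv13-3 at 0.24 and Trbv13-1 at 0.11 (limma adjusted p = 0.267 and 0.537). Among TCRs with at least 2 templates Trbv13-3 was at 0.27 (edgeR adjusted p = 0.420). Trbv13-1 also lost its call with TMM factors, with no filter or a filter of 2% on the mean share, and without the mouse block (edgeR adjusted p from 0.0506 to 0.176). In mice 1 to 3 alone, 4 V genes were called, and Trbv13-3 and Trbv13-1 had log2 fold changes of 0.04 and 0.07. Counting templates in place of unique TCRs left 2 V genes called and turned Trbv13-1 to -0.14, with Trbv20 at 1.41 (edgeR adjusted p = 0.0562). Genes of near-identical sequence, such as Trbv12-1 and Trbv12-2 or the Trbv13 genes, can be hard to tell apart from the bases read.

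**Figure D2:**
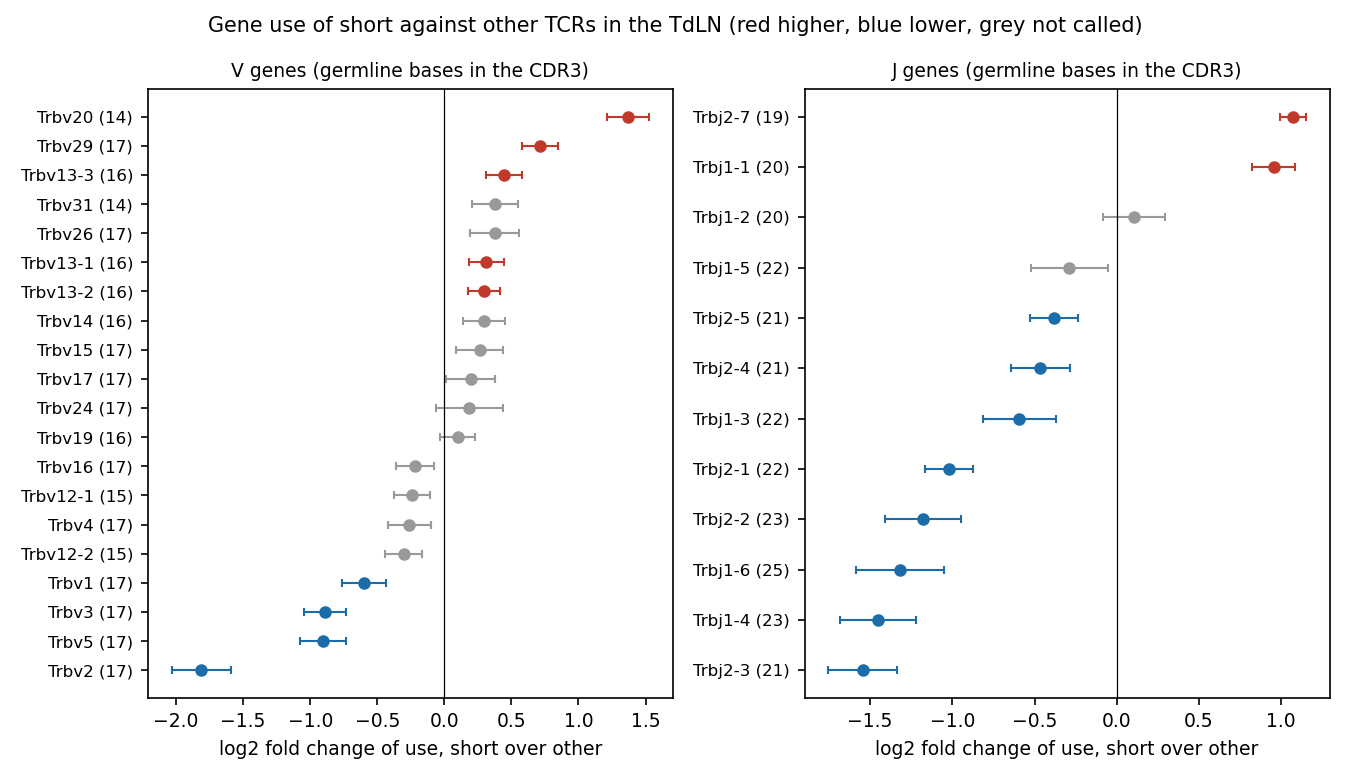
Log2 fold change of use (short over other TCRs, TdLN, 5 mice) for each V and J gene tested, with SE bars, and in brackets the germline bases the gene brings to the CDR3. Red and blue genes had an edgeR adjusted p under 0.05 and grey ones did not; Trbv20, Trbj2-7 and Trbj1-1 stand furthest to the right, and Trbv2 and Trbj2-3 furthest to the left.

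Between tumor and node, the question was whether short TCRs made up another part of the repertoire. They made up 13.6%, 14.7%, 14.8%, 15.9% and 15.2% of the unique TCRs of the TdLN in mice 1 to 5. In tumor 1 they made up 11.8%, 13.1%, 7.87%, 15.8% and 14.5%, and in tumor 2 10.1%, 12.6%, 8.56%, 19.1% and 16.0%. The share was lower in tumor 1 than in the TdLN in 5 of 5 mice, but the groups overlapped and no difference passed the adjusted test. In percentage points, the mean difference between tumor 1 and the TdLN was -2.24 ± 2.72 (SD over the differences of 5 mice; two-sided exact permutation test, p = 0.135, adjusted over 6 comparisons p = 0.302), and that between tumor 2 and the TdLN was -1.56 ± 3.70 (exact permutation p = 0.444, adjusted p = 0.667). The 19.1% of tumor 2 of mouse 4 has a 95% Wilson interval of 10.4% to 32.5%, which covers counting error only.

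By templates the differences were larger and so was their spread. Short TCRs held 14.7%, 15.8%, 16.6%, 18.8% and 17.0% of the productive templates of the TdLN in mice 1 to 5, 11.4%, 5.81%, 2.40%, 17.3% and 7.97% of those of tumor 1, and 9.37%, 5.51%, 2.55%, 20.5% and 16.9% of those of tumor 2. The tumor 1 share lay below the TdLN share of the same mouse in 5 of 5 mice, by little in mouse 4. The difference was -7.62 ± 5.15 percentage points for tumor 1 (SD over 5 mice; exact permutation p = 0.0397, which became 0.238 after adjustment). For tumor 2 it was -5.61 ± 6.66 (exact permutation p = 0.151, adjusted p = 0.302). With the mouse as a replicate block the tumor 1 value had an exact sign-flip p = 0.062, the smallest that 5 mice allow. Without rearrangements listed in another mouse the differences were -2.92 ± 7.73 and -1.35 ± 4.75, and without the largest TCR of each sample they were -4.91 ± 5.62 and -2.94 ± 9.37 (SD, n = 5). The largest TCR was a longer one in every tumor sample, so leaving it out raises the short share there by construction. For tumor 1 the difference was -9.19 ± 5.45 within the set of mice 1 to 3 and -5.27 ± 5.31 within mice 4 and 5, and for tumor 2 it was -9.90 ± 4.35 and 0.821 ± 1.23 (SD over 3 and over 2 mice).

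The length limit decided some of these comparisons, and so did the rule on the first letter. In-frame rearrangements of 12 or fewer letters that do not begin with C held 5117 templates, 2948 of them from GSYEQYF in tumor 1 of mouse 1. With all in-frame rearrangements counted, a setting added after the data were seen, the template share differed by -0.889 ± 17.9 percentage points in tumor 1 and by 0.525 ± 10.7 in tumor 2 (SD, n = 5). With at most 11 amino acids as short, the tumor 1 share of unique TCRs lay 1.63 percentage points below that of the TdLN (a difference of -1.63; exact permutation adjusted p = 0.0476). With at most 13, the tumor 2 share lay 6.63 percentage points above that of the TdLN (exact permutation adjusted p = 0.0476) and tumor 1 differed from tumor 2 by -5.69 (exact permutation adjusted p = 0.0476). The template shares of tumor 1 and tumor 2 then differed from that of the TdLN by -2.89 ± 16.1 and 12.4 ± 11.9, and with at most 11 by -3.53 ± 3.05 and -3.37 ± 1.76 (SD, n = 5).

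**Figure D3:**
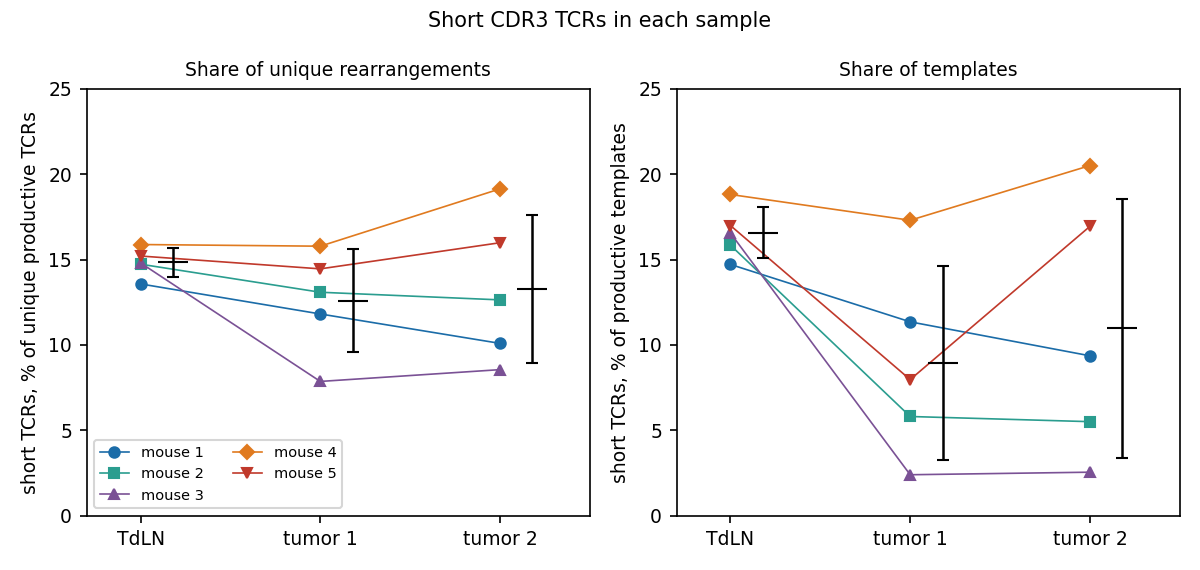
Short CDR3 TCRs as a percentage of unique productive TCRs (left) and of productive templates (right) in the TdLN, tumor 1 and tumor 2, with a coloured line per mouse and the mean with SD over 5 mice in black. Every line falls from the TdLN to tumor 1, in mouse 4 by little, and mouse 3 reaches the lowest shares in both tumors.

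Clone size, the mean number of templates per unique TCR, was compared between short and other TCRs within each sample. In the TdLN a short TCR had 2.73, 2.15, 3.43, 1.81 and 1.78 templates in mice 1 to 5, and another TCR 2.48, 1.97, 3.002, 1.47 and 1.56. Short TCRs were thus the larger ones in 5 of 5 mice, with a mean log2 ratio of 0.19 ± 0.07 (SD, n = 5; exact sign-flip p = 0.062, the smallest that 5 mice allow, adjusted over 3 tissues p = 0.188). Among TCRs with at least 2 templates the mean log2 ratio was 0.00389 ± 0.17 (SD, n = 5; exact sign-flip p = 0.938). Single templates were the only evidence for 52.2% ± 6.59 of the short and for 63.2% ± 6.87 of the other TCRs of a TdLN. By length, this percentage rose from 43.3% ± 11.9 at 10 amino acids to 53.2% ± 7.68 at 12, 60.4% ± 8.09 at 14 and 73.2% ± 9.52 at 16.

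In the tumors the ratio varied between mice. A short TCR of tumor 1 had 13.8, 6.75, 6.79, 16.1 and 6.09 templates in mice 1 to 5, and another TCR 14.4, 16.5, 23.6, 14.4 and 11.9. The log2 ratio was -0.06, -1.29, -1.80, 0.16 and -0.96, with a mean of -0.79 ± 0.82 (SD, n = 5; exact sign-flip p = 0.188, adjusted p = 0.281). In tumor 2 it was -0.12, -1.31, -1.84, 0.12 and 0.10, with a mean of -0.61 ± 0.91 (exact sign-flip p = 0.375, adjusted p = 0.375). Short TCRs took 0 to 3 of the 10 largest places of a sample beginning with C. The largest TCR of tumor 1 of mouse 3 was a longer one with 2476 templates, against 49 for its largest short TCR.

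The log2 ratio lay lower in tumor 1 than in the TdLN by a mean of -0.98 ± 0.80 and in tumor 2 by -0.80 ± 0.88, lower in 5 of 5 mice each (SD over 5 mice; exact permutation p = 0.0238 and p = 0.00794, adjusted over both p = 0.0238 and p = 0.0159). This test was added after the data were seen. Without the largest TCR of each sample the differences were -0.40 and -0.44 (exact permutation adjusted p = 0.333 and p = 0.405). That TCR was a longer one in every tumor sample, so leaving it out raises the tumor ratios by construction. Without rearrangements listed in another mouse they were -0.25 and 0.03 (exact permutation adjusted p = 0.841 each), and the tumor 1 ratio itself became 0.02 ± 0.82 and the tumor 2 ratio 0.30 ± 0.48 (SD, n = 5). Leaving out mouse 1, 2, 3 or 5 also ended both calls (exact permutation adjusted p from 0.0571 to 0.0857). With the mouse as a replicate block both had an exact sign-flip p = 0.062. Within mice 4 and 5 alone the differences were -0.65 ± 0.72 and -0.13 ± 0.06, and within mice 1 to 3 alone -1.20 ± 0.91 and -1.24 ± 0.90 (SD over 2 and over 3 mice).

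**Figure D4:**
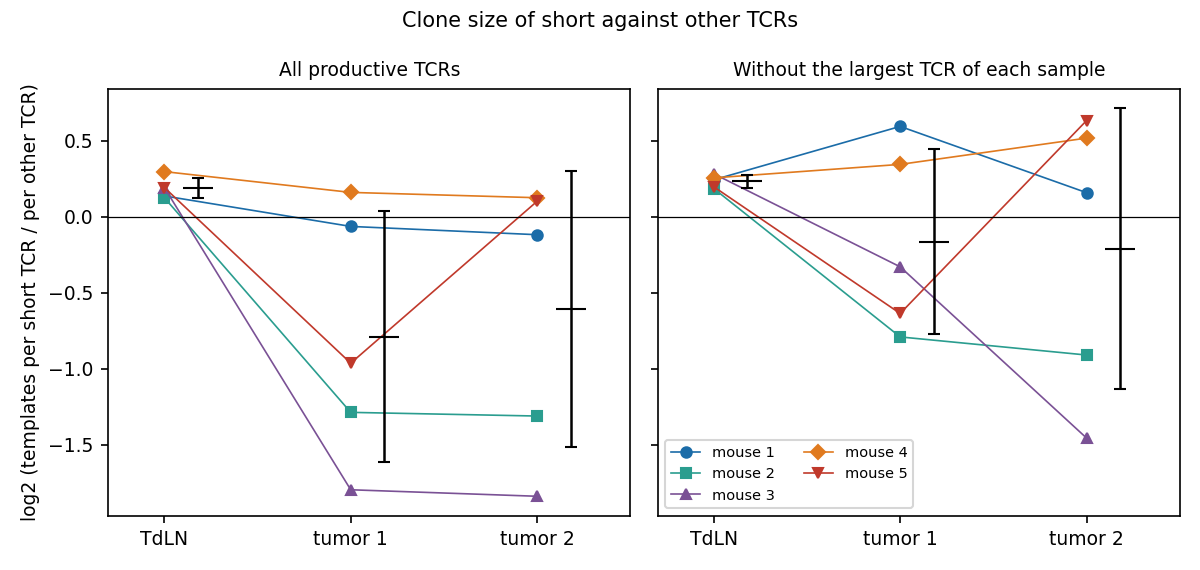
Log2 ratio of templates per short TCR to templates per other TCR in each tissue, for all productive TCRs (left) and without the largest TCR of each sample (right), with a line per mouse and the mean with SD over 5 mice in black. All 5 TdLN values lie above 0 in both plots, whereas the tumor values spread to both sides of 0. The tumor values rise when the largest TCR is left out, which follows from it being a longer one in every tumor sample.

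The makeup of short TCRs in tumor 1 was compared with that of short TCRs in the TdLN. No V gene and no J gene was called: 0 of 20 V genes (0%) and 0 of 12 J genes (0%) had an edgeR adjusted p under 0.05, with 1 V gene and 0 J genes under an unadjusted p of 0.05. A tumor 1 sample held only 14 to 57 short TCRs, which limits this comparison. By size of change, the V genes that stood out were Trbv3, Trbv12-2 and Trbv4, with log2 fold changes of -1.82 ± 0.82, -0.83 ± 0.61 and -0.78 ± 0.68 (SE; edgeR adjusted p = 0.575, 0.607 and 0.607). Trbv3 had 2 short TCRs in tumor 1, both in mouse 3, against 97 in the TdLN, and without mouse 3 it was called (edgeR adjusted p = 0.00448). Among J genes, Trbj2-2 had 1 short TCR in tumor 1 against 58 in the TdLN (log2 fold change -2.11 ± 1.05, SE; edgeR adjusted p = 0.446), and limma on log2 shares called it (log2 difference -2.23, limma adjusted p = 0.0129). Trbj2-1 and Trbj1-5 had log2 fold changes of -0.73 ± 0.69 and -0.68 ± 0.82 (SE; edgeR adjusted p = 0.929 each), and without mouse 3 Trbj1-5 was called (edgeR adjusted p = 0.0458). EQYF, the end that Trbj2-7 encodes, closed 43.5% ± 10.99 of the short CDR3s of tumor 1 and 34.9% ± 19.9 of those of tumor 2 (SD, n = 5).

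Junctions of short TCRs did not differ detectably between tissues. Short TCRs of tumor 1 had a mean of 1.85, 2.03, 2.64, 2.35 and 2.06 N bases in mice 1 to 5 and those of tumor 2 1.97, 2.05, 2.31, 2.44 and 1.57, which overlaps the 1.69 to 2.09 of the TdLN. Tumor 1 differed from the TdLN by 0.27 ± 0.40 N bases and tumor 2 by 0.15 ± 0.38 (SD, n = 5; exact permutation p = 0.135 and p = 0.397, adjusted over 8 comparisons p = 0.635 each). Kept D bases differed by 0.28 ± 0.70 and 0.45 ± 0.72, V trimming by 0.06 ± 0.77 and 0.52 ± 1.18 and J trimming by -0.01 ± 0.52 and -0.06 ± 0.30 bases (SD, n = 5; exact permutation adjusted p between 0.635 and 0.921). Leaving out mouse 4 took the tumor 2 differences to 0.00724 bases for V trimming, 5.15e-05 for N bases and 0.142 for kept D bases. For tumor 1, kept D bases differed by 0.584 without mouse 1 and by 0.146 without mouse 4. Tumor 2 of mouse 4, with its 9 short TCRs, lay highest in V trimming at 5.67 bases.

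CDR3s found in several mice were more frequent among the short ones. Of the distinct short CDR3s of a TdLN, 17.2%, 20%, 13.95%, 12.9% and 14.4% in mice 1 to 5 were also listed in the TdLN of another mouse, against 8.95%, 10.3%, 11.5%, 7.86% and 8.16% of the other CDR3s. The short values lay above all of the other values, and the difference was 6.32 ± 2.80 percentage points (SD, n = 5, higher in 5 of 5 mice; exact sign-flip p = 0.062, the smallest that 5 mice allow, adjusted over 3 comparisons p = 0.188). Without the replicate block, an exact permutation test gave p = 0.00794 (adjusted p = 0.0238), but it ignores that both classes came from the same TdLN. A CDR3 shared between mice counts in each of them, so the 5 values are not independent in either test. Within mice 1 to 3 it was 6.78 ± 3.81 and within mice 4 and 5 it was 5.64 ± 0.888 (SD over 3 and over 2 mice). In a setting added after the data were seen, only matches through another nucleotide rearrangement counted. The short values were then 15.3%, 19.1%, 12.2%, 11.2% and 13.3% and the others 7.66%, 9.66%, 10.8%, 7.30% and 7.45%. The difference was 5.66 ± 3.14 percentage points (SD, n = 5). A variant of the same join still counted as another rearrangement, and the source of the matches was not tested.

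**Figure D5:**
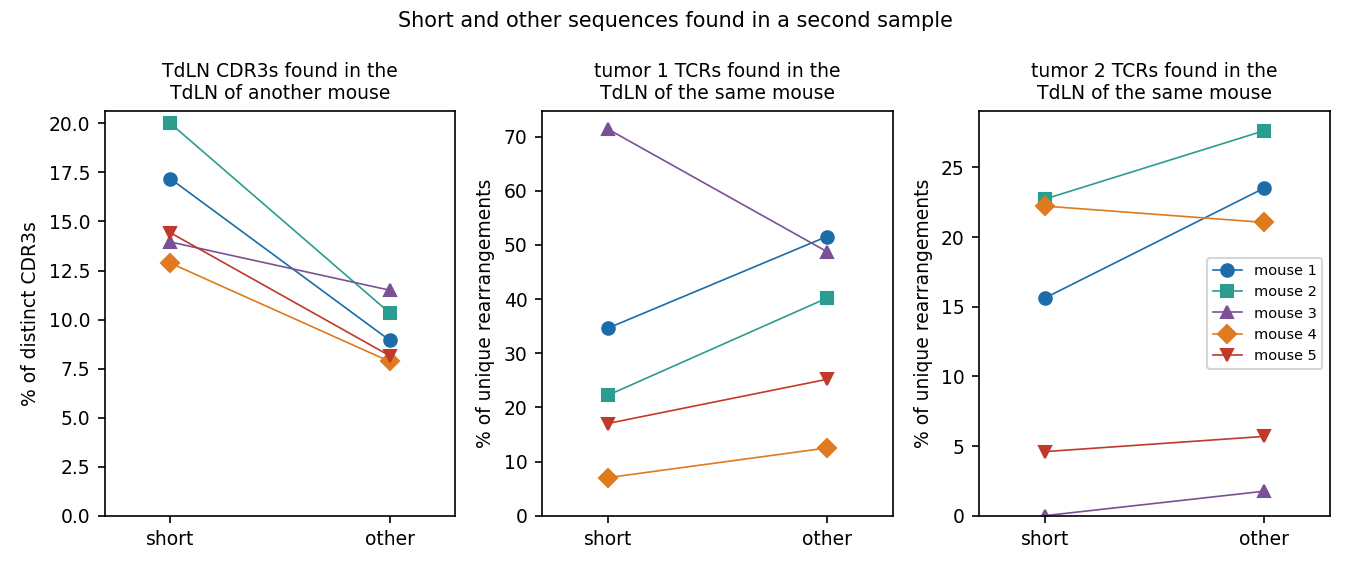
Percentage of sequences found again in another sample, for short and other sequences, with a line per mouse: TdLN CDR3s in the TdLN of another mouse (left), and rearrangements of tumor 1 (middle) and tumor 2 (right) in the TdLN of the same mouse. All 5 lines fall from short to other on the left; in the middle mouse 3 runs against the other 4 mice.

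Across all 15 samples, 186 of the 2084 short CDR3s (8.93%) were listed in at least 2 mice and 29 in at least 3. Of the 12570 other CDR3s, 739 (5.88%) were listed in at least 2 mice and 128 in at least 3. Of the 29 short CDR3s, 26 were listed with more than 1 nucleotide rearrangement. A rearrangement without N bases was listed for 16 of them and one with Trbj2-7 for 14. Among all short TCRs of a TdLN, a mean of 26.6% had no N base and 40.2% used Trbj2-7. Within a TdLN, 10.6% ± 2.72 of the short CDR3s had 2 or more rearrangements (SD, n = 5). These shares are not alike in kind, since a CDR3 listed in more mice has more listings that can count. The short CDR3 listed in most mice was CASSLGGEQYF, found in the TdLN of all 5 with 6, 2, 5, 26 and 2 templates and in no tumor sample. It was listed as 12 rearrangements, called with 6 V genes and always Trbj2-7, and 10 of its 13 listings had no N base. Those called Trbv12-1 have the same CDR3 bases as those called Trbv12-2. Those called Trbv29 also have the same CDR3 bases as each other, so the distinct joins are fewer than 12. The coding bases of 5 of these rearrangements show how different joins give the same receptor loop. Each line runs from the C codon to the codon before F, 5′ to 3′, with the bases between the V part and the J part in capitals.
Trbv12-2, TdLN of mice 2 and 4: tgtgccagctctctGGGGGGtgaacagtac
Trbv29, TdLN of mouse 1: tgtgctagcagtttaGGGGGCgaacagtac
Trbv26, TdLN of mouse 3: tgtgccagcagtctgGGGGGGgaacagtac
Trbv16, TdLN of mouse 4: tgtgcaagcagcttagGGGGCgaacagtac
Trbv17, TdLN of mouse 5: tgtgctagcagtCTGGGGGGtgaacagtac

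In these 5 lines all bases in capitals were assigned to the D segment, so the loop was read from germline bases alone. The next CDR3 was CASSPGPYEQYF, with 150 templates in 4 mice from 12 listed rearrangements called Trbv12-1 or Trbv12-2, each with at least 2 N bases. It had 11, 1, 9 and 4 templates in the TdLN of mice 1, 2, 3 and 5, and 11 and 66 in tumor 1 and 8 and 40 in tumor 2 of mice 2 and 5. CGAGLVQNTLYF, joined from Trbv20 and Trbj2-4 with 1 N base, was listed in 4 mice but in no TdLN, with 1 template in tumor 1 of mouse 5 and 1, 4 and 16 in tumor 2 of mice 1, 2 and 3.

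Sharing between a tumor and its own TdLN gave no call. Of the short TCRs of tumor 1, 34.6%, 22.2%, 71.4%, 7.02% and 17.0% in mice 1 to 5 were listed in the TdLN of the same mouse, against 51.5%, 40.2%, 48.8%, 12.5% and 25.2% of the other TCRs. Short TCRs were lower in 4 mice and higher in mouse 3, where 10 of 14 were found. The difference was -5.17 ± 16.5 percentage points (SD, n = 5; exact sign-flip p = 0.5, adjusted p = 0.5). It ranged from -12.1 without mouse 3 to -1.98 without mouse 2 and was -2.23 without mouse 1. In tumor 2 the short values were 15.6%, 22.7%, 0%, 22.2% and 4.60% and the others 23.5%, 27.6%, 1.75%, 21.1% and 5.69%, a difference of -2.89 ± 3.54 (SD, n = 5; exact sign-flip p = 0.188, adjusted p = 0.281). Without rearrangements listed in another mouse the differences were -0.0681 ± 13.6 in tumor 1 and -0.141 ± 7.77 in tumor 2 (SD, n = 5). For tumor 2 the difference was -9.45 with at least 2 templates, -9.54 with a limit of 11 letters and -1.65 without mouse 1.

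Out-of-frame rearrangements, which encode no receptor, served as a reference for length in the TdLN. Among them 14.4%, 14.6%, 13.1%, 14.96% and 13.6% had a CDR3 of at most 37 bases in mice 1 to 5, a limit midway between the in-frame lengths of 12 and 13 amino acids. The share of productive TCRs was lower than this in mouse 1 and higher in the other 4 mice, with a mean difference of 0.706 ± 1.04 percentage points (SD, n = 5; exact sign-flip p = 0.188). Within mice 1 to 3 the difference was 0.342 ± 1.26 and within mice 4 and 5 it was 1.25 ± 0.458 (SD over 3 and over 2 mice), and with at least 2 templates required it turned to -0.770. It was -0.738 with a limit of 11 letters and 2.96 ± 1.41 with a limit of 13 (SD, n = 5; exact sign-flip p = 0.062).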

How the data were processed

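Genomic DNA of sorted CD8+ PD-1+ CD44+ T cells from 15 samples had been sequenced with the immunoSEQ assay for mouse TCR β, which amplifies rearranged loci with primers for V and J genes. For each rearrangement the authors deposited the sequence read, its CDR3, V, D and J calls, template counts, the fraction of templates (frequencyCount) and, as other values, lengths and positions of trimmed and added bases. Clonotypes had been called upstream of these files, and the deposited fraction was not used here. The submitters' processing notes name the build mm10, with no role stated. Members and lists were chosen with earlier results of these data known.

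Short TCRs were in-frame rearrangements whose CDR3 begins with C and has at most 12 letters, and all other in-frame ones beginning with C were compared with them. Of the short ones 9 had no V gene call, 15 no J gene call and 1017 no D gene call, and a rearrangement without a call stayed out of the test of that gene type. Total templates ranged from 338 to 13848 per sample, and Wilson 95% intervals and the limit of 3 counts behind a 0 cover counting error only. Tissues were compared by two-sided exact permutation tests over mice, and short with other TCRs within a sample by two-sided exact sign-flip tests. Numbers of unique TCRs per V or J gene with a mean share of at least 1% were tested with edgeR 4.0.16 (glmQLFit and glmQLFTest, the mouse as a block between classes of 1 sample), with limma 3.58.1 on log2 shares (pseudocount 0.5 percentage points) as an alternative, in R 4.3.3. The SE of an edgeR log2 fold change was derived as its absolute value divided by the square root of the quasi-likelihood F statistic. P-values were adjusted by the Benjamini-Hochberg method. Python 3.11.15 with scipy 1.17.1 did the rest, and the scripts were tested on simulated data.

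Named were the largest short TCR of each tumor 1 sample and over the TdLN and over tumor 2, the 3 short CDR3s listed in most mice, and the V and J genes called (beyond 8, the 4 with the largest rises and the 4 with the largest falls) or, with none called, the 3 with the largest changes. Other genes and CAQFF were named after their values were seen. V and J genes were matched by name and sequence to GENCODE genes on GRCm38 (40 of 40 names).

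The mouse number of the labels pairs the tissues. Of the unique TCRs of tumor 1, 49.5%, 37.8%, 50.6%, 11.6% and 24.0% in mice 1 to 5 were found again in their own TdLN, against 4.92% or less in the TdLN of another mouse. For tumor 2 the values were 22.7%, 27.0%, 1.60%, 21.3% and 5.51%, against at most 18.9%, 9.48%, 1.07%, 0% and 5.33%, so mice 3 and 5 were unclear. Alternatives were other length limits, distinct CDR3s, at least 2 templates, the F ending, equal depth, no small variants of large clones, no rearrangements of another mouse, medians, the replicate block, other filters, TMM factors, template counts, each set of mice and leaving out each mouse. Added after seeing the data were CDR3s without the leading C, no largest TCR, matches through another rearrangement, the gene tests within each set of mice, and the clone size comparison between tissues.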

Additional observations from a re-analysis of the deposited data

Results flagged for a closer look

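In groups of 5 samples, a sample was singled out where its gap to the nearest of the others was large against the range of its group, which chance alone does in about 1 in 20 groups. As 27 groups were examined, a sample or more would be singled out by chance alone. V bases trimmed from short TCRs averaged 5.67 in tumor 2 of mouse 4, the highest of tumor 2, over only 9 short TCRs. J bases trimmed averaged 3.99 in tumor 2 of mouse 5, the lowest of tumor 2, over 87 short TCRs.

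By an unpaired test added after the data were seen, the clone size of short against other TCRs differed between tissues. The log2 difference was -0.98 between tumor 1 and the TdLN and -0.80 between tumor 2 and the TdLN (exact permutation adjusted p = 0.0238 and p = 0.0159). With the mouse as a replicate block both had an exact sign-flip p = 0.062 and did not pass. Without rearrangements listed in another mouse the differences were -0.25 and 0.03.

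Outside the rearrangements beginning with C, 104 in-frame rearrangements of 12 or fewer letters held 5117 templates. Most came from GSYEQYF (Trbv16 and Trbj2-7, 7 letters, 25 V bases trimmed), with 2948 templates in tumor 1, 1335 in tumor 2 and 409 in the TdLN of mouse 1, and 298 in tumor 2 of mouse 2. In tumor 1 of mouse 1 this was more than the 359 templates of all short TCRs beginning with C.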

How the results depend on the processing

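The 27 comparisons and counts were recomputed under 463 alternatives, of which 389 kept direction and side of the threshold, and the 20 single genes under 360, of which 319 did. Direction is as in the report, tumor or short first. Causes of the changes were not tested.

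With a limit of 11 letters the unique share of tumor 1 was -1.63 and passed (exact permutation adjusted p = 0.0476), own-TdLN sharing of tumor 1 was 6.62, N bases of tumor 2 -0.0213, J trimming of tumor 1 0.36, productive minus out of frame -0.738, Trbv4 0.32 and Trbj2-1 0.0553 in tumor 1, and the clone size differences of tumor 1 and tumor 2 were -1.90 and -1.30 and no longer passed. With a limit of 13 the unique shares were 0.934 and 6.63 for tumor 1 and tumor 2 and -5.69 between them, the template share of tumor 2 was 12.4, own-TdLN sharing of tumor 1 3.74, N bases of tumor 1 -0.0308, V trimming of tumor 1 -0.0114, Trbv4 0.0796, the clone size ratio of tumor 2 0.54 and the clone size differences -0.43 and 0.31, and 1 V gene was called between tissues. With at least 2 templates, N bases of tumor 2 were -0.37, V trimming of tumor 1 -0.0267, J trimming of tumor 1 0.0640 and productive minus out of frame -0.770, and 1 J gene was called between tissues, as 1 was by limma. Over distinct CDR3s V trimming of tumor 1 was -0.0545, and with medians the unique share between tumors was 0.447 and J trimming of tumor 2 0.0680.

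Without rearrangements of another mouse the clone size ratios of tumor 1 and tumor 2 were 0.0192 and 0.30 and the differences -0.25 and 0.0347. With rearrangements not beginning with C the shares of tumor 2 were 0.0352 (unique) and 0.525 (templates), its clone size ratio 0.0380 and the differences -0.72 and -0.31. Without small variants of large clones the tumor 1 difference was -1.01, and without the largest TCR the differences were -0.40 and -0.44. Counting templates called 2 V genes and put Trbv13-1 at -0.14.

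In mice 1 to 3 the shares between tumors were 0.493 (unique) and 0.714 (templates), V trimming -0.27 and -0.0542 for tumor 1 and tumor 2, J trimming of tumor 2 0.0716, D bases of tumor 1 -0.0192, Trbv4 0.19, Trbj2-1 0.62 and Trbj1-5 0.48, the clone size differences -1.20 and -1.24, and 4 V genes were called in the TdLN. In mice 4 and 5 the shares of tumor 2 were 2.02 and 0.821, its clone size ratio 0.11, its own-TdLN sharing 0.0390, the differences -0.65 and -0.13, and 5 J genes were called in the TdLN.

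With the mouse as a replicate block the clone size differences of -0.98 and -0.80 had an exact sign-flip p = 0.062 and no longer passed, and without the block the CDR3 sharing of 6.32 passed. Without it 7 V genes were called in the TdLN in place of 9, and Trbv13-1 was not. The block changed no other call of a comparison or of a gene named by the rule. Leaving out each mouse gave ranges of -0.13 to 0.33 for V trimming of tumor 1, -0.20 to 0.16 and -0.10 to 0.0707 for J trimming of tumor 1 and tumor 2, -1.19 to -0.73 and -0.97 to -0.49 for the clone size differences (exact permutation adjusted p from 0.0286 to 0.0857), 0 to 1 V genes and 0 to 1 J genes called between tissues, -1.87 to 0.0604 for Trbj2-1 and -5.93 to 0.0153 for Trbj1-5. Tumor samples held 9 to 87 short TCRs each, which limits every comparison of tumors.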
